A study of Homo sapiens with 16 samples.

Results

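The 39 HOX cluster genes were taken from the RNA-seq tables by symbol, as HOXA, HOXB, HOXC or HOXD followed by digits only. They are 39 of the 21031 genes listed once in both the HiSeq table (22892 genes) and the NextSeq table (25606 genes), and no HOX symbol of either table was lost. On the hg18 build the 11 HOXA genes lie on chromosome 7, the 10 HOXB genes on chromosome 17 (43961806 to 44161110), the 9 HOXC genes on chromosome 12 (52618843 to 52736081) and the 9 HOXD genes on chromosome 2 (176665778 to 176763881). The cells were HT1080, a human fibrosarcoma line, with a constitutive Tet repressor in every clone and a single-copy transgene at an FRT site. The HiSeq table holds 6 libraries, namely 8p clones carrying inducible XIST with No DOX (1 library) and with DOX (2 libraries, DOX 1 and DOX 2), the 1p clone with XIST and DOX (1 library), a 1p clone with the empty vector and DOX (1 library) and the 12q clone with XIST and DOX (1 library). The NextSeq table holds 4 libraries, the 1p and 12q XIST clones with No DOX and with DOX (1 library each). DOX, the tetracycline analog that switches XIST on, was given for 5 days. The 1p and 8p clones descend from another parental subclone than the 12q clone. The methods describe the DOX libraries of 8p as 2 clones and the No DOX library as 1 clone, without saying which DOX library shares its clone. Site, clone and culture therefore cannot be told apart in any comparison between sites, nor can parental subclone where 12q is compared. P-values measure only the spread between these libraries, which may be technical. In the HiSeq site fit this spread includes DOX against No DOX within 8p and XIST against empty vector within 1p. The comparison of 8p with 1p mixes these as well. In the NextSeq fit the spread comes from the site by DOX difference, and in the 8p DOX test from the DOX pair.

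HOX genes encode homeodomain transcription factors that give cells their position along the body axis of the embryo. Genes at the 3′ end of each cluster (low numbers) act towards the head and those at the 5′ end (high numbers) towards the tail and the tips of the limbs, and adult fibroblasts keep the HOX pattern of the place they came from. Silent HOX genes are classical targets of the Polycomb complexes, in which EZH2 places H3K27me3 and PRC1 reads it, and Trithorax proteins work against them. XIST RNA, the silencer of the inactive X chromosome, also recruits Polycomb complexes to the chromosome it coats. No HOX cluster lies on the 1p or 8p arm, and HOXC lies on the same chromosome as the 12q integration.

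Promoter sequences are shown for genes that stand for the main patterns below, namely HOXA9 (high in every library), HOXC4 (whose start is also that of HOXC5), HOXD13 (different between clones) and HOXA7 and HOXD1 (silent or nearly so). Each is the 150 bases before the start, 5′ to 3′ along the gene, from the RefSeq promoter table (GRCh38.p14), with every CG dinucleotide in capitals. The windows are chr7:27165538-27165687 (- strand) for HOXA9, chr12:54016738-54016887 (+ strand) for HOXC4, chr2:176092571-176092720 (+ strand) for HOXD13, chr7:27156676-27156825 (- strand) for HOXA7 and chr2:176188518-176188667 (+ strand) for HOXD1.
HOXA9: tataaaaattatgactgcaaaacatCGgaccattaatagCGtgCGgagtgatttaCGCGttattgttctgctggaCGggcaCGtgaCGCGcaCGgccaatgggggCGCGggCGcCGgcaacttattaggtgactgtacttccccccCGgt
HOXC4: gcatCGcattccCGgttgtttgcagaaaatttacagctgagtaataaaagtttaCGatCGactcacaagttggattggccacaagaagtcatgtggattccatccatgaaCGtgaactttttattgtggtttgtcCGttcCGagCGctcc
HOXD13: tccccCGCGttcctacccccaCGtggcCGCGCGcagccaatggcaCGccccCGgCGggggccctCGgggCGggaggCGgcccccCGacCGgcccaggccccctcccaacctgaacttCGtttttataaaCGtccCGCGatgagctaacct
HOXA7: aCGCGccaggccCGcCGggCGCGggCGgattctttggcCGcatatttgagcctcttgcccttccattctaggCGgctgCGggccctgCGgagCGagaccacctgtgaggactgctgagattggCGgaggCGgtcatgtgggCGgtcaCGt
HOXD1: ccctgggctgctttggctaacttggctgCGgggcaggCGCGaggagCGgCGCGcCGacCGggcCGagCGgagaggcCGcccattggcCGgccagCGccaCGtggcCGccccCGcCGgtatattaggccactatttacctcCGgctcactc
The printed windows hold 15, 8, 18, 16 and 18 CG dinucleotides in this order, so the silent HOXA7 and HOXD1 are not poorer in CG than the expressed HOXA9. The promoter table held 20 of the 39 HOX genes, and the comparison that follows covers these 20 only. In the 250 bases before the start they held a median of 20.5 CG dinucleotides (range 4 to 40), against 10 over all 27305 genes of the table, at a GC content of 59.0 % against 57.6 %. CCAAT, searched on both strands, was present in 17 of the 20 (85 %) and in 33.0 % of all genes. TATAAA was found in 20 % and 11.2 %, GGGCGG in 50 % and 42.2 %, and TGATTNAT, the letters of a PBX-HOX site, in 10 % and 2.57 % (2 of the 20 HOX promoters, HOXA2 and HOXD11). These motifs do not overlap in sequence, and a match describes letters only. Among the 20, the 8 genes at 1 FPKM or more in every library had a median of 21.5 CG and the 10 genes under 1 FPKM in every library 13.5, with ranges (14 to 28 and 4 to 31) that overlap. CCAAT was in 75 % of the former and 90 % of the latter. HOXC4 and HOXC5 have the same window and count as 2 promoters.

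The identity of the libraries was checked first. XIST was at 3.38 FPKM in the 8p No DOX library, 99.0 and 89.7 FPKM with DOX, 23.8 FPKM in the 1p XIST library, 0.0705 FPKM with the empty vector and 61.9 FPKM in the 12q library of the HiSeq table. It was at 4.17 and 22.0 FPKM in the 1p clone and 3.75 and 67.6 FPKM in the 12q clone, No DOX before DOX, in the NextSeq table. Of 14 mesenchymal markers 9 were at 1 FPKM or more in all 10 libraries, vimentin being highest (1644 to 2978 FPKM). THY1 and PRRX1 did not exceed 0.0871 FPKM, and COL1A1 and COL1A2 reached at most 1.35 and 1.52 FPKM. Of leukocyte and endothelial markers, 0 of 6 and 0 of 5 were at 1 FPKM or more throughout. PTPRC was listed at 0 in all libraries, whereas LYZ was at 1.15 to 1.72 FPKM in the HiSeq and 0.149 to 0.389 FPKM in the NextSeq libraries. The endothelial cadherin CDH5 was at 5.44, 7.06 and 5.70 FPKM in the 12q libraries (HiSeq, then NextSeq No DOX and DOX), 0.673 to 0.835 FPKM in 8p and 0.0545 FPKM or less in 1p. The 10 epithelial markers summed to 0.344 to 1.44 FPKM in the HiSeq libraries and to 1.11, 1.07, 4.33 and 8.92 FPKM in the NextSeq 1p No DOX, 1p DOX, 12q No DOX and 12q DOX libraries. In the last, EPCAM was at 2.38 FPKM and CDH1 at 1.38 FPKM, when both were at 0.0497 FPKM or less in every other library, and 4 of the 10 markers reached 1 FPKM. The libraries differed in scale as well. Over all genes tested the median difference of 8p from 1p in the HiSeq table was 0.27 on the log2(FPKM + 1) scale and that of 12q from 1p was 0.18, so the differences between HiSeq clones are given both as deposited and after the libraries were centred on their median gene.

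The HT1080 clones expressed a HOX code with a complete middle HOXB run. With 1 FPKM as the limit, 20 of the 39 genes were expressed in all 10 libraries (51.3 %), 7 in some and 12 in none (30.8 %). Of all genes listed in both tables, 44.3 % passed in all 10 libraries and 43.8 % in none, and of 86 genes of other homeobox families, a set defined by symbols after the values had been seen, 15.1 % passed in all and 72.1 % in none. The share of expressed genes differed by cluster, with 8 of 10 HOXB, 6 of 9 HOXC, 3 of 11 HOXA and 3 of 9 HOXD genes expressed throughout.

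**Figure D1:**
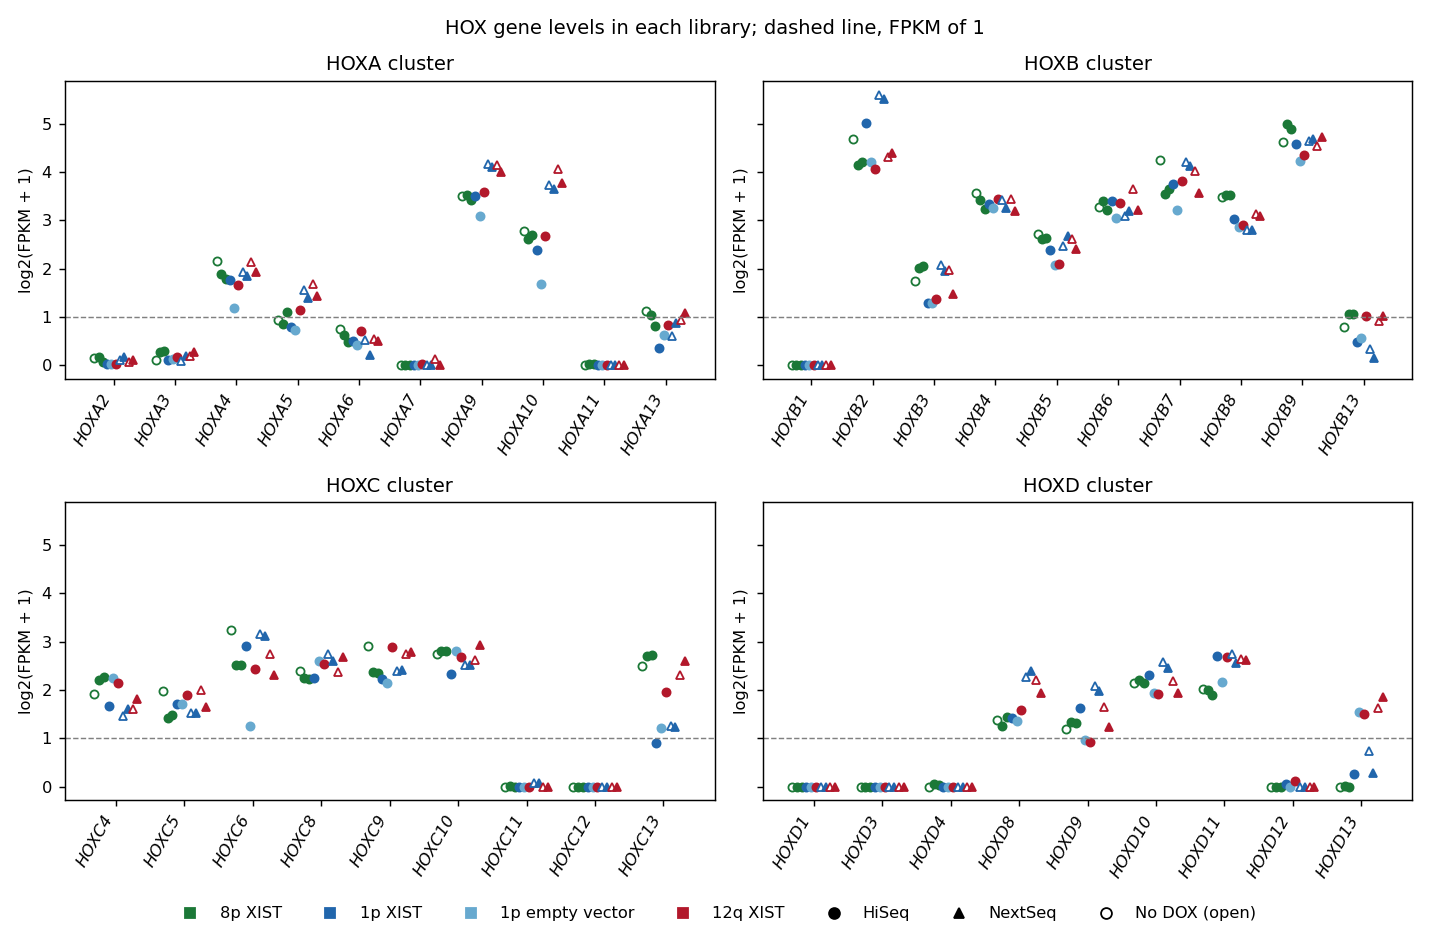
Levels of HOX genes as log2(FPKM + 1) in the 10 libraries, by cluster and in order of gene number, with circles for HiSeq, triangles for NextSeq, open symbols for No DOX and the dashed line at 1 FPKM. HOXB2 to HOXB9 form an unbroken expressed run, whereas the expressed genes of the other clusters are interrupted by genes at or near 0, and HOXC6, HOXC13 and HOXD13 spread widely between libraries.

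In the HOXB cluster, HOXB1 was listed at 0 in all 10 libraries and HOXB2 to HOXB9 were expressed in all of them. HOXB2, which acts in the hindbrain and its nerves, had the widest range of the run, from 15.7 to 47.6 FPKM. HOXB9, a thoracic gene, ran from 17.8 to 30.8 FPKM in the HiSeq libraries (median 23.2) and from 22.2 to 25.3 FPKM in the NextSeq libraries (median 24.3). HOXB7 lay between 8.27 and 17.96 FPKM and HOXB4, a regulator of blood stem cells, between 8.19 and 10.9 FPKM. The remaining members of the run were HOXB6 at 7.29 to 11.5 FPKM, HOXB8 at 5.95 to 10.5 FPKM, HOXB5 at 3.24 to 5.52 FPKM and HOXB3 at 1.43 to 3.20 FPKM. HOXB13, a prostate and hindgut gene set apart from the run, reached 0.106 to 1.09 FPKM. The levels of HOXB2 and HOXB9 overlapped, as did those of HOXB4, HOXB6 and HOXB8, whereas HOXB5 lay below HOXB8 and above HOXB3 in every library.

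The HOXA cluster was expressed mainly in its 5′ part. HOXA9, a 5′ gene also known from leukaemia, was the highest, with a median of 10.4 FPKM in the HiSeq libraries (7.51 to 11.02) and 16.4 FPKM in the NextSeq libraries (15.0 to 16.9). HOXA10, which acts in the uterus and limb, had medians of 5.24 FPKM (2.22 to 5.87) and 12.5 FPKM (11.5 to 15.6). HOXA4 was at 1.26 to 3.43 FPKM over the 10 libraries. The level of HOXA5 straddled the limit, at 0.658 to 2.19 FPKM. Lower still were HOXA13 at 0.288 to 1.17 FPKM, HOXA6 at 0.160 to 0.677 FPKM, and HOXA2, HOXA3, HOXA7 and HOXA11 at no more than 0.217 FPKM.

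In the HOXC cluster the genes from HOXC4 to HOXC10 were expressed, HOXC11 and HOXC12 were at or near 0, and HOXC13 beyond them was expressed again. HOXC10, a gene of the lumbar region, had medians of 5.85 FPKM (4.06 to 6.01) in the HiSeq and 4.93 FPKM (4.69 to 6.68) in the NextSeq libraries. HOXC9 was at 3.45 to 6.56 FPKM, HOXC8 at 3.68 to 5.66 FPKM and HOXC6 at 1.39 to 8.44 FPKM. HOXC4 and HOXC5 lay at 1.77 to 3.85 FPKM and 1.68 to 2.97 FPKM. These 3 neighbours, HOXC4, HOXC5 and HOXC6, are listed with the same start (52696909) and overlap, so how reads were divided between them is uncertain, and HOX clusters also hold antisense RNAs whose separation by strand in the quantification is not stated. HOXC11 did not exceed 0.0515 FPKM, and HOXC12 was listed at 0 in every library.

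In the HOXD cluster expression was limited to HOXD8 to HOXD11 and, in some clones, HOXD13. HOXD11, a limb and lumbosacral gene, had medians of 3.25 FPKM (2.71 to 5.49) and 5.18 FPKM (4.91 to 5.75) in the HiSeq and NextSeq libraries. HOXD10 was at 2.80 to 4.99 FPKM, HOXD8 at 1.39 to 4.29 FPKM and HOXD9 at 0.886 to 3.24 FPKM. HOXD1 and HOXD3 were listed at 0 in all libraries, and HOXD4 and HOXD12 did not exceed 0.0875 FPKM.

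The question in comparing clones was whether the HOX code is a constant of the line. It was not for HOXC13, the last gene of its cluster and a regulator of hair and nail keratins. Its level was 4.61, 5.53 and 5.56 FPKM in the 8p No DOX, DOX 1 and DOX 2 libraries, 0.866 FPKM in the 1p XIST library, 1.31 FPKM in the empty-vector library and 2.89 FPKM in the 12q library of the HiSeq table. In the NextSeq table it was 1.37 and 1.36 FPKM in the 1p clone and 3.95 and 5.04 FPKM in the 12q clone. The 8p libraries lay above all other HiSeq libraries, and the 12q libraries lay above the 1p libraries in both tables.

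**Figure D2:**
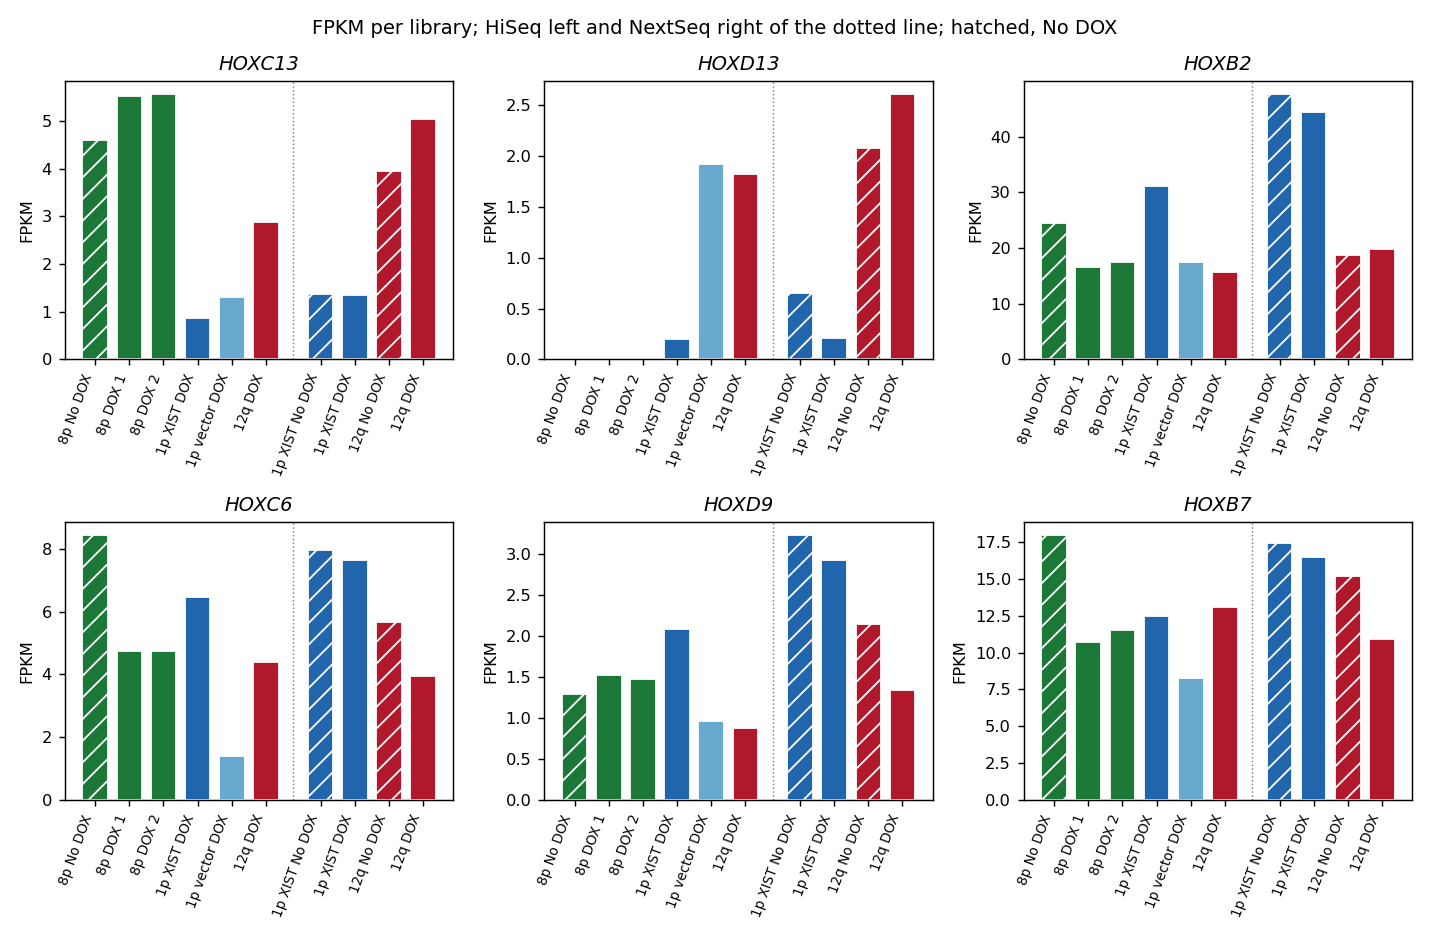
FPKM of HOXC13, HOXD13, HOXB2, HOXC6, HOXD9 and HOXB7 in each library, as bars from 0, with the 6 HiSeq libraries left and the 4 NextSeq libraries right of the dotted line and No DOX hatched. HOXC13 is low in all 1p libraries, HOXD13 is at or near 0 in all 8p libraries, and HOXB2 is highest in the 1p XIST libraries and not in the empty-vector library.

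Between the 8p and 1p libraries of the HiSeq table, 3 of the 23 HOX genes tested were higher in 8p and 0 were lower (limma, Benjamini-Hochberg adjusted p under 0.05), against 15.3 % of all genes tested that passed in either direction. HOXC13 differed by 1.58 ± 0.16 (SE) on the log2 scale (adjusted p = 0.0118). HOXB3 differed by 0.66 ± 0.15 (adjusted p = 0.0432), from 2.37, 3.04 and 3.16 FPKM in 8p and 1.43 and 1.44 FPKM in 1p. HOXB8 differed by 0.56 ± 0.12 (adjusted p = 0.0402), from 10.1, 10.5 and 10.4 FPKM in 8p and 7.11 and 6.29 FPKM in 1p. After median centring 1 gene remained, HOXC13, at 1.30 (adjusted p = 0.031), while 4.37 % of all genes passed. The difference of HOXB3 was then 0.38 (adjusted p = 0.261) and that of HOXB8 0.28 (adjusted p = 0.236). Without the 8p DOX 1 or the 8p DOX 2 library 0 HOX genes passed. HOXC13 then differed by 1.55 and 1.54, respectively (limma, adjusted p = 0.084 and 0.0828). The share of all genes that passed in these 2 fits is not given.

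**Figure D3:**
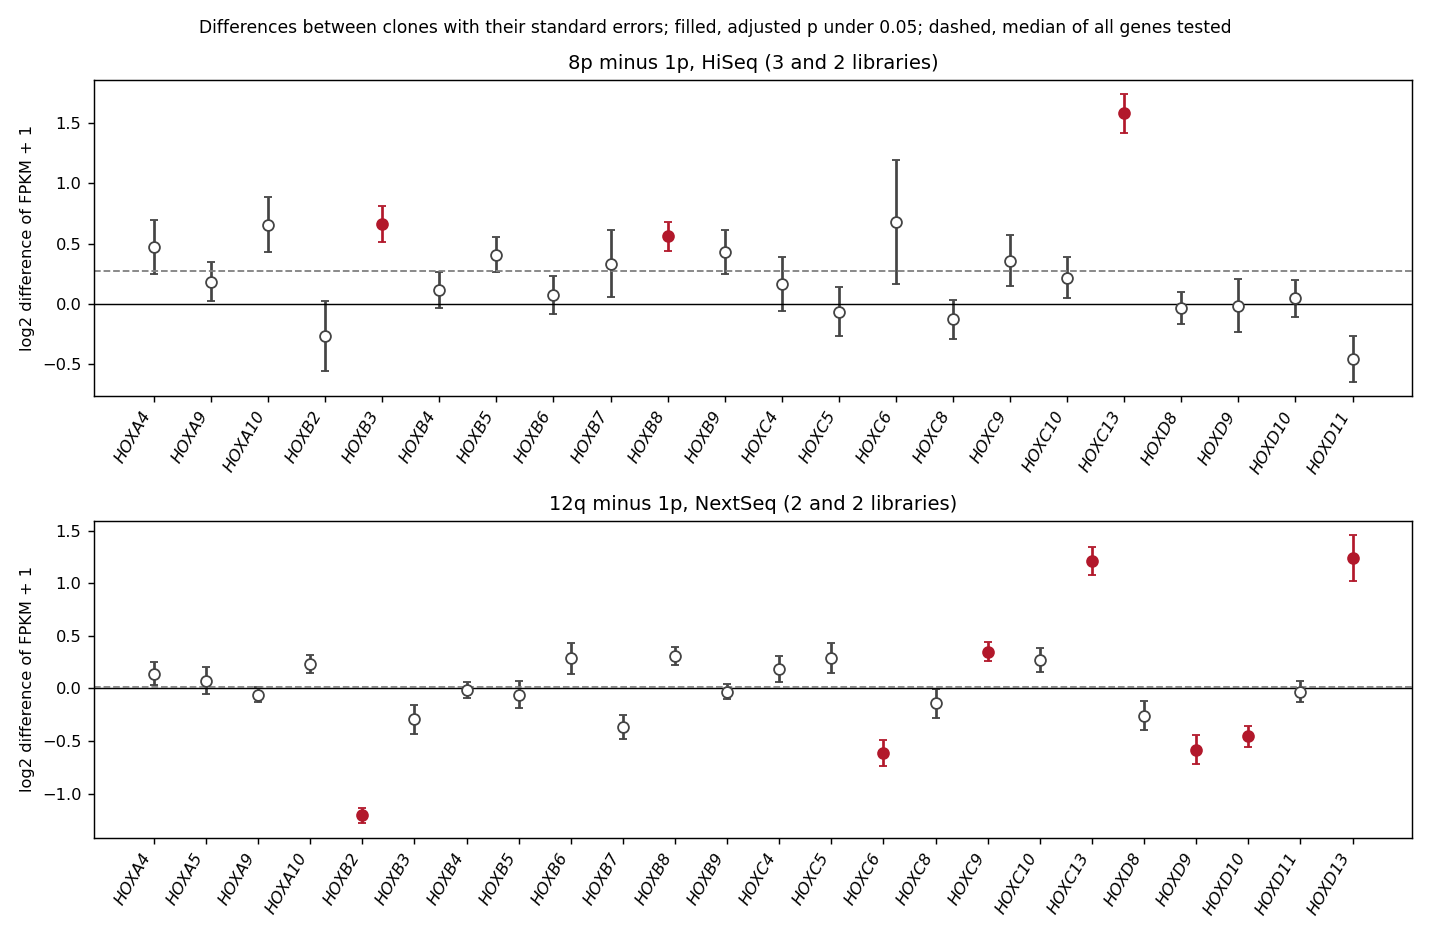
Log2 differences of FPKM + 1 with their standard errors (limma) for the HOX genes tested and reported, 8p minus 1p in the HiSeq table above and 12q minus 1p in the NextSeq table below, with filled symbols for adjusted p under 0.05 and the dashed line at the median of all genes. HOXC13 is the largest difference in the upper panel, and in the lower panel HOXC13 and HOXD13 are higher and HOXB2 is lower by more than 1.

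By overlap instead of a test, with the libraries centred, all 3 8p libraries were above the 3 other HiSeq libraries for HOXB3, HOXB8 and HOXC13 (3 of 23, against 13.9 % of all genes) and below them for HOXB4, HOXC8, HOXD8 and HOXD11 (4 of 23, against 13.8 %). HOXD11 was at 3.04, 3.01 and 2.71 FPKM in 8p, 5.49 and 3.47 FPKM in 1p and 5.44 FPKM in 12q. Its difference of 8p from 1p was -0.46 ± 0.19 as deposited and -0.74 after centring (adjusted p = 0.145 and 0.0712). HOXD13 was too low in this table to be tested (mean of 0.659 FPKM). It was at 0, 0.012 and 0 FPKM in the 8p No DOX, DOX 1 and DOX 2 libraries, 0.198 FPKM in the 1p XIST library, 1.92 FPKM with the empty vector and 1.82 FPKM in 12q. HOXD13 acts at the tips of the limbs, and its gene was thus listed at or near 0 in the 8p libraries and above 1 FPKM in the 12q and empty-vector libraries. HOTAIR, a noncoding RNA of the HOXC cluster that has been linked to PRC2, went the other way. It was at 1.20, 0.767 and 0.929 FPKM in the 8p No DOX, DOX 1 and DOX 2 libraries and at 0.0809 FPKM or less in the other 7 libraries of both tables, too low to be tested. HOTAIR was chosen after its values were seen.

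Between 12q and 1p in the NextSeq libraries, 7 of 25 HOX genes passed the test, 3 higher and 4 lower in 12q, when 32.8 % of all genes passed. The share for HOX genes was thus near that of all genes. The count includes HOXD13, whose mean reached 1 FPKM only through the 12q libraries, and with genes at a mean of 1 FPKM in both clones alone it was 6 of 24 (2 higher and 4 lower), against 31.8 % of all genes. HOXC13 was higher by 1.21 ± 0.13 (adjusted p = 0.0074). HOXD13 was at 0.657 and 0.209 FPKM in 1p and 2.08 and 2.61 FPKM in 12q. Its difference of 1.24 ± 0.22 is given as a description, since the gene was admitted to the test by the clone in which it was high. HOXC9 was at 4.28 and 4.36 FPKM in 1p and 5.68 and 5.85 FPKM in 12q, a difference of 0.35 ± 0.09 (adjusted p = 0.0452). In none of these 3 genes did the libraries of the clones overlap, but the genes were picked by the same comparison. The lack of overlap therefore adds no support, and the share of all genes without overlap is not given.

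HOXB2 had the largest difference towards 1p. It was at 47.6 and 44.4 FPKM in 1p and 18.8 and 19.9 FPKM in 12q, a difference of -1.21 ± 0.07 (limma, adjusted p = 0.00298). HOXC6 was at 7.95 and 7.65 FPKM in 1p and 5.66 and 3.96 FPKM in 12q (-0.61 ± 0.12, adjusted p = 0.025). Within the HOXD cluster, HOXD9 and HOXD10 were lower in 12q, unlike HOXD13 at the 5′ end. HOXD9 was at 3.24 and 2.93 FPKM in 1p and 2.15 and 1.35 FPKM in 12q (-0.58 ± 0.14, adjusted p = 0.0374), and HOXD10 at 4.99 and 4.48 FPKM in 1p and 3.54 and 2.85 FPKM in 12q (-0.46 ± 0.10, adjusted p = 0.032). These calls rest on 1 residual degree of freedom, and markers of other kinds moved with the clone. CDH5 and the epithelial sum were higher in 12q as given above. Of 10 mesenchymal markers tested 1 was higher and 6 were lower in 12q, when 32.8 % of all genes passed in either direction. The part of these markers in the HOX differences was not tested. A fit of site alone was repeated with each library left out, which leaves 1 library in a group. Which genes passed depended on the library left out, so only differences are given. Without the 12q DOX library, the one with EPCAM and CDH1, the differences were -1.24 (HOXB2), 1.06 (HOXC13) and -0.40 (HOXC6). Those of HOXD9, HOXD10 and HOXC9 were -0.37, -0.34 and 0.33.

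In the HiSeq libraries, 0 of 23 HOX genes passed between 12q and 1p (limma), and 0.537 % of all genes did, or 0.431 % after centring. At an unadjusted p under 0.05 there was 1 HOX gene, against 12.8 % of all genes. HOXC13 had the lowest p there, with a difference of 0.90 ± 0.21 (adjusted p = 0.25). Between 12q and 8p also 0 of 23 passed, against 0.907 % of all genes, or 0.828 % after centring. Here 5 of 23 were at an unadjusted p under 0.05, against 14.9 % of all genes. The 12q clone had 1 library in this table, assumed to vary like the others.

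The HiSeq libraries are other libraries than those of the NextSeq table, so the 7 genes could be followed in them. After centring, all 7 differed between the 12q and the 1p XIST library in the direction seen in the NextSeq table, as did 89.6 % of the 3542 genes that passed there and were listed in both, and without HOXD13 it was 6 of 6. The 12q HiSeq library held EPCAM at 0 FPKM. The empty-vector clone, which has the same site as the 1p XIST clone, gave another picture. It lay nearer to 12q than to the 1p XIST library for 5 of the 7 HOX genes (71.4 %; 4 of 6 without HOXD13), and for 55.9 % of the 3542 genes. HOXB2 was at 31.2 FPKM in the 1p XIST library, 17.6 FPKM with the empty vector and 15.7 FPKM in 12q. HOXD9 was at 2.09, 0.962 and 0.886 FPKM and HOXD10 at 3.95, 2.83 and 2.80 FPKM in the same order. For HOXB2, HOXD9, HOXD10 and HOXD13 the empty-vector library was thus close to 12q. Among the 1p and 12q libraries, the high or low level was that of the 1p XIST libraries of both tables. It was not particular to them, as HOXD13 was lower still in 8p (0, 0.012 and 0 FPKM in No DOX, DOX 1 and DOX 2). In the same 8p libraries HOXD10 (3.41, 3.61 and 3.44 FPKM) and HOXD9 (1.29, 1.53 and 1.48 FPKM) lay between the 1p XIST and empty-vector levels.

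**Figure D4:**
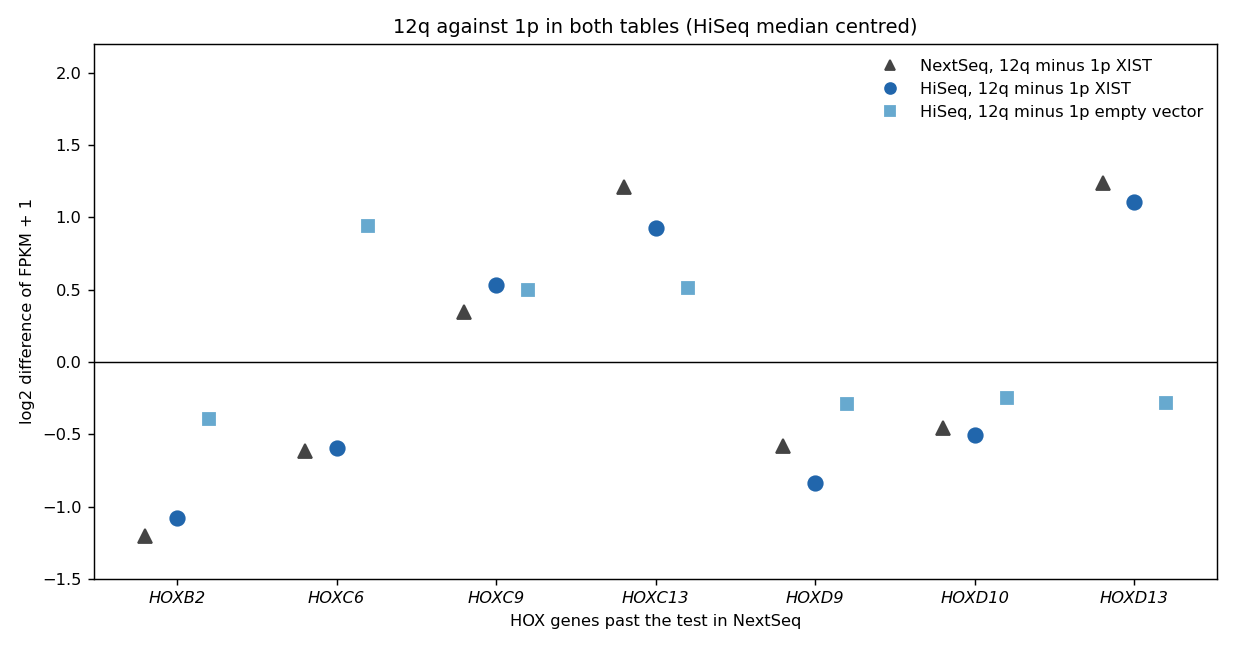
Log2 differences of FPKM + 1 for the 7 HOX genes past the test in the NextSeq table, 12q minus 1p XIST in that table (triangles), 12q minus 1p XIST in the HiSeq table (circles) and 12q minus 1p empty vector in the HiSeq table (squares), HiSeq libraries centred on their median gene. Triangles and circles lie on the same side of 0 for all 7 genes, whereas the squares of HOXC6 and HOXD13 lie on the other side.

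Over all 23 HOX genes tested in both tables, 14 had the same sign of 12q minus 1p in both (60.9 %, against 63.7 % of all genes). With the 1p XIST library alone and median centring, an alternative chosen after seeing the data, it was 18 of 23 (78.3 %, against 72.5 %). Across these 23 genes, which share libraries and are not independent replicates, Pearson's r of the differences was 0.73 and, with the 1p XIST library alone, 0.85. Over the 10196 genes tested in both tables the same values were 0.57 and 0.69.

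The 1p XIST and empty-vector clones were both given DOX, so they differ in the transgene and in being different clones, with 1 library each and no test. Of 23 HOX genes 5 differed by 1.5-fold or more in FPKM + 1, as did 21.3 % of all genes. After centring there were also 5 (3 higher and 2 lower with XIST, against 20.3 % of all genes in either direction). HOXC6 was at 6.48 FPKM with XIST and 1.39 FPKM with the vector, a centred difference of 1.55 on the log2 scale. HOXB2 (0.70) and HOXA10 (0.61), at 4.22 and 2.22 FPKM, were also higher with XIST. HOXC4 (-0.67), at 2.201 and 3.761 FPKM, was lower. HOXD13 (-1.38), at 0.198 and 1.92 FPKM, was lower too, but reached the mean of 1 FPKM only through the empty-vector library. Its value is a description, although it enters the counts of 5 and 2. The 1p XIST No DOX library of the NextSeq table, with XIST at 4.17 FPKM, had HOXC6 at 7.95 FPKM and HOXB2 at 47.6 FPKM, as high as its DOX partner. HOXC4 and HOXC6 moved in opposite directions and share a start, and the sum of HOXC4, HOXC5 and HOXC6 was 10.9 FPKM with XIST and 7.40 FPKM with the vector.

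Whether HOX genes changed when XIST was induced was tested by DOX against No DOX. The empty-vector clone has no No DOX library, so XIST and DOX itself cannot be told apart here. The paper reports a rise of H3K27ac over the genome with DOX and proposes a broad effect of the antibiotic. In the 1p and 12q clones together (NextSeq) 0 of 25 HOX genes passed (limma), and 0.00877 % of all genes did, or 1 gene. At an unadjusted p under 0.05 there was 1 HOX gene, HOXB4, against 6.55 % of all genes. In the 1p clone 0 of 24 HOX genes changed by 1.5-fold or more, against 1.1 % of all genes. HOXB5 was at 4.54 FPKM before and 5.39 FPKM after DOX there (0.20 on the log2 scale). In the 12q clone 0 of 26 reached 1.5-fold, against 3.08 % of all genes. There HOXB3, at 2.89 FPKM before and 1.78 FPKM after DOX, had the largest change (-0.49), followed by HOXB7, at 15.2 and 10.9 FPKM (-0.45). The median change of the HOX genes was -0.07 in the 1p clone and -0.17 in the 12q clone, and those of all genes were -0.00017 and -0.024.

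In 8p 7 of 23 HOX genes passed the test of the 2 DOX libraries against the single No DOX library (limma), 2 higher and 5 lower. Of all genes 35.2 % passed, so HOX genes passed no more often than others. After median centring 4 of 23 HOX genes were higher and 5 lower, when 2139 of all 11301 genes were higher and 2187 lower. With 1.5-fold as the limit 2 of 23 HOX genes changed, both lower, against 10.6 % of all genes. HOXC6 was at 8.44 FPKM in the No DOX library and 4.73 and 4.75 FPKM in the DOX libraries (-0.72 ± 0.08, adjusted p = 0.00634). HOXB7 was at 17.96 FPKM in the No DOX library and 10.7 and 11.5 FPKM in the DOX libraries (-0.65 ± 0.08, adjusted p = 0.00788). These values in the No DOX library were above those of the DOX pair, which lay close together.

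HOXB2, HOXC5 and HOXC9 also fell and HOXB9 and HOXC4 rose with DOX in 8p (limma). HOXC9 went from 6.56 to 4.19 and 4.09 FPKM (-0.56 ± 0.08, adjusted p = 0.00914) and HOXC5 from 2.97 to 1.68 and 1.81 FPKM (-0.53 ± 0.09, adjusted p = 0.0143). HOXB2 went from 24.5 to 16.7 and 17.4 FPKM (-0.50 ± 0.08, adjusted p = 0.012). HOXB9 went from 23.4 to 30.8 and 28.7 FPKM (0.33 ± 0.09, adjusted p = 0.0369) and HOXC4 from 2.76 to 3.60 and 3.85 FPKM (0.33 ± 0.09, adjusted p = 0.0392). As HOXC4 rose while HOXC5 and HOXC6 fell, their sum is also given, 14.2 FPKM in the No DOX library and 10.01 and 10.41 FPKM in the DOX libraries. The No DOX level of these genes rests on 1 library, assumed to vary like the DOX pair, so DOX and clone cannot be told apart, and with no filter on low genes 0 HOX genes passed. Of the 5 genes that fell, HOXC6 (-0.43), HOXB7 (-0.45) and HOXC5 (-0.35) had lower values and HOXB2 (0.07) and HOXC9 (0.04) higher values with DOX in the 12q clone, where there was 1 library per condition and no test. In the 1p clone their changes lay between -0.10 (HOXB2) and 0.02 (HOXC9). The difference between the clones was not tested, as 8p is in the other table.

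**Figure D5:**
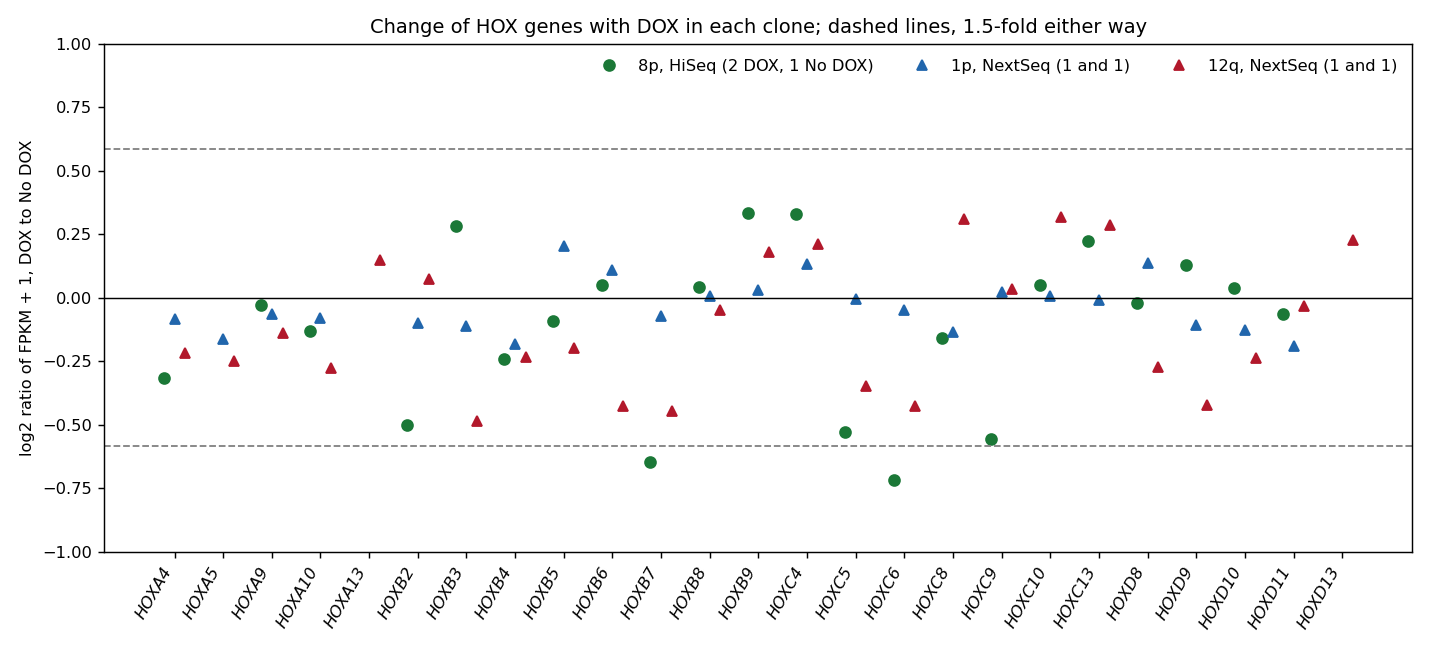
Log2 ratio of FPKM + 1 with DOX to No DOX for each reported HOX gene with a mean of at least 1 FPKM in the libraries compared, in 8p (circles, mean of 2 DOX libraries against 1), the 1p clone and the 12q clone (triangles, 1 library per condition), with dashed lines at 1.5-fold. HOXB7 and HOXC6 in 8p are the 2 points beyond the lines.

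The HOXC cluster shares chromosome 12 with the 12q integration, which lies in FAM222A, listed as C12orf34 (108636570 to 108692695), at a distance of 55.9 Mb. With DOX in the 12q clone 5 of the 7 HOXC genes tested had higher and 2 lower values, with a median change of 0.21, against -0.034 for the 590 chromosome 12 genes and -0.024 for all genes. HOXC10 was at 5.15 and 6.68 FPKM (0.32), HOXC8 at 4.17 and 5.41 FPKM (0.31) and HOXC13 at 3.95 and 5.04 FPKM (0.29), No DOX before DOX. HOXC6 and HOXC5 had lower values (-0.43 and -0.35). None reached 1.5-fold. The 12q DOX library is also the one with EPCAM and CDH1, and the part of that RNA in these values was not tested.

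Partners and regulators of HOX proteins came from fixed lists. Of 10 TALE homeodomain cofactors, which bind DNA together with HOX proteins, 5 were expressed at 1 FPKM or more in all 10 libraries, namely PBX2 (17.1 to 29.1 FPKM), TGIF1 (10.2 to 24.9), PBX3 (6.27 to 14.6), MEIS2 (4.72 to 10.97) and PKNOX1 (2.02 to 4.80), and MEIS3 reached 1.23 FPKM on average in the HiSeq table. Of 5 cofactors tested between 12q and 1p in the NextSeq table, PBX2 (0.55) and TGIF1 (0.40) were higher and MEIS2 (-0.82) and PBX3 (-0.74) lower in 12q, when 32.8 % of all genes passed. Among the HiSeq libraries, 0 of 6 passed between 8p and 1p (15.3 % of all genes), 12q and 1p (0.537 %) or 12q and 8p (0.907 %). PBX3 was at 14.6 FPKM in the empty-vector library and 6.39 to 8.10 FPKM in the other HiSeq libraries. With DOX in 8p TGIF1 was higher (0.64) and PKNOX1 (-0.53) and MEIS2 (-0.48) lower, or 3 of 6 against 35.2 % of all genes.

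The Polycomb machinery was present in all clones. All 11 PRC2 genes and 18 of 20 PRC1 genes were at 1 FPKM or more in the 10 libraries, as were 10 of 12 Trithorax and H3K27 demethylase genes (KMT2B is listed in the NextSeq table only). EZH2, the methyltransferase, was at 15.8 to 28.7 FPKM in the HiSeq and 24.9 to 34.1 FPKM in the NextSeq libraries. With DOX in 8p 3 PRC2 genes were higher and 5 lower, EZH2 (-0.79), SUZ12 (-0.58), PHF19 (-0.58) and RBBP4 (-0.47) having the largest differences (limma, with 35.2 % of all genes past the test). There 9 of 20 PRC1 genes were lower and 0 higher, among them BMI1 (-0.70), CBX8 (-0.64) and CBX6 (-0.62). Of all 11301 genes tested, 2526 were lower and 1456 higher. After centring 8 of 20 PRC1 genes were lower and 2 higher, against 2187 lower and 2139 higher of all 11301 genes. The 9 PRC1 genes lower as deposited include CBX2 (-0.75), at 1.83 FPKM in the No DOX library and 0.680 and 0.673 FPKM with DOX. CBX2 reached the mean of 1 FPKM only through the No DOX library, so its value is a description. Of 11 Trithorax-list genes tested 1 was higher (KDM6B, 0.48) and 4 were lower, led by WDR5 (-0.78), against 35.2 % of all genes. Between 12q and 1p in the NextSeq libraries, 2 PRC2 genes were higher (EZH1, 0.51, and PHF1, 0.36) and 2 lower (EZH2, -0.33, and SUZ12, -0.27), 2 of 19 PRC1 genes were higher and 6 lower, led by BMI1 (-0.65), and 1 of 12 Trithorax-list genes was higher (KDM6A, 0.35), against 32.8 % of all genes. Between 8p and 1p only MTF2 (0.72) of PRC2 and KDM6A (0.57) and DOT1L (-0.68) of the Trithorax list passed (15.3 % of all genes), and after centring DOT1L alone (4.37 %). In the pooled DOX test of the NextSeq libraries, 0 genes of these lists passed.

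Of 15 HOX cluster noncoding RNAs only HOTAIRM1, at the 3′ end of HOXA, was at 1 FPKM or more throughout (2.19 to 6.32 FPKM). It was higher in 8p than in 1p by 0.99 as deposited (adjusted p = 0.0402) and by 0.71 after centring (adjusted p = 0.157), and higher with DOX in 8p by 0.59 (adjusted p = 0.00814; limma). HOXC-AS1, listed in the NextSeq table only, was at 0.195 and 0.864 FPKM in 1p and 1.73 and 2.30 FPKM in 12q. Of 15 genes for retinoic acid, which switches on 3′ HOX genes in the embryo, 4 were expressed throughout, and CRABP2 was at 0.519 and 0.880 FPKM in 1p and 4.91 and 5.53 FPKM in 12q (NextSeq), and at 0.323 to 0.590 FPKM in 8p, 1.06 and 1.48 FPKM in 1p and 3.94 FPKM in 12q (HiSeq). HOXC-AS1 and CRABP2 reached the mean of 1 FPKM through the libraries in which they were high, so their values are a description. The caudal genes CDX1, CDX2 and CDX4 were listed at 0 everywhere. Most listed genes on the flanks of the clusters were expressed, with 8 of 10 genes beside HOXA, 10 of 14 beside HOXB, 8 of 10 beside HOXC and 9 of 10 beside HOXD at 1 FPKM or more in all libraries. Among the others, EVX1 beside HOXA and EVX2 beside HOXD were listed at 0 throughout, and PRAC1 beside HOXB did not exceed 0.0924 FPKM. Of the 8 genes tested beside HOXC, where HOXC13 stood out, 2 were higher in 8p than in 1p as deposited and 0 after centring (15.3 % and 4.37 % of all genes). Between 12q and 1p 1 of the 8 was higher in the NextSeq table (CALCOCO1, 1.16; 32.8 % of all genes) and 0 passed in the HiSeq table (0.537 %), where CALCOCO1 differed by 1.01 (adjusted p = 0.322; limma).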

How the data were processed

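The authors sequenced polyA RNA of the 10 libraries, mapped them with TopHat and Bowtie on the hg18 build and deposited FPKM per gene from Cufflinks, in a HiSeq and a NextSeq table. Versions and annotation are not given in the sources used here. FPKM are estimates scaled for library size and gene length, so the depth behind each value is unknown and no counting interval is given. The tables were compared only within themselves. Lines with a repeated symbol (739 HiSeq, 882 NextSeq), a symbol turned into a date (22 in each) or no value (2 NextSeq) were left out. Positions were raised by 1 at the start, since the listed starts count from 0. The ChIP samples were not analysed here.

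Limma (version 3.58.1, R 4.3.3; lmFit, eBayes with trend) was run on log2(FPKM + 1) for all genes with a mean of at least 1 FPKM, with Benjamini-Hochberg adjustment over them. The HiSeq fit had site as its only term (3 residual degrees of freedom), the NextSeq fit site and DOX (1), and the 8p DOX fit 1. With 1 library per condition a 1.5-fold limit of FPKM + 1 was used, with no test. Folds on this scale understate changes of low genes. The steps were tested on simulated data. Every HOX gene with a mean of at least 1 FPKM in either table is named with values and the others with their range, except for an item that enters the counts and is not reported here. Of the other lists, those past the test with the largest differences are named. Members and lists were chosen with earlier results of these data known. Alternatives were other pseudocounts, filters, scalings, models and folds, and leaving out libraries. Python 3.11.15 with pandas 2.3.3 and numpy 2.4.6 was used for the rest.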

Additional observations from a re-analysis of the deposited data

How the results depend on the processing

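No alternative reversed the direction of a HOX gene that passed a test. Of the HOX counts, the 3 genes past the test between 8p and 1p became 1 with a filter of 5 FPKM, 1 with no filter and 1 with median centring, and ranged from 0 to 3 when libraries were left out in turn (0 without 8p DOX 1 or 8p DOX 2). The 7 genes between 12q and 1p in the NextSeq table became 3 with the filter of 5 FPKM and 3 with no filter. A fit of site alone with each library left out was added after seeing the data. Which genes passed there depended on the library left out. The 7 genes of the 8p DOX test became 4 with the filter of 5 FPKM, 0 with no filter, 9 with no trend and 9 with median centring. After centring 4 were higher and 5 lower, with HOXB3 and HOXC13 added as higher. That test could not be made without a DOX replicate. With a limit of 5 FPKM 7 HOX genes were expressed in all libraries. The 2 HOX genes past 1.5-fold with DOX in 8p became 4 with a pseudocount of 0.1, 0 at 2-fold and 7 at a lower fold limit, and stayed 2 without either DOX replicate. The 0 of the 12q clone became 2 with a pseudocount of 0.1 and 6 at the lower limit. The 5 between the 1p XIST and empty-vector libraries became 9, 2 and 15 with a pseudocount of 0.1, at 2-fold and at the lower limit. The share of all genes past each setting is not given, except for median centring between 8p and 1p and in the 8p DOX test. These shifts therefore cannot be told from shifts over all genes, and their cause was not tested. No pairing by replicate number was possible because no pair of compared groups had 2 replicate numbers in common. The NextSeq DOX test had site as a term, so it set the DOX library of each clone against the No DOX library of that clone. Depth is unknown, so genes near 0 FPKM cannot be called absent. With 1 to 3 libraries per group the calls describe these libraries, and clone and site cannot be told apart.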
